A study of Drosophila melanogaster with 12 samples.

Results

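The 8 Hox genes of Drosophila melanogaster were examined for AGO2 and RNA polymerase II (Pol II) on chromatin: labial (lab), proboscipedia (pb), Deformed (Dfd), Sex combs reduced (Scr) and Antennapedia (Antp) of the Antennapedia complex, and Ultrabithorax (Ubx), abdominal-A (abd-A) and Abdominal-B (Abd-B) of the bithorax complex. They were taken by name from 18277 annotated genes, and all 8 were found, as FBgn0002522 (lab), FBgn0051481 (pb), FBgn0000439 (Dfd), FBgn0003339 (Scr), FBgn0260642 (Antp), FBgn0003944 (Ubx), FBgn0000014 (abd-A) and FBgn0000015 (Abd-B). For each gene the body, 20 kb on each side and the DNA between neighbouring Hox genes were searched for every deposited interval. The 2 complexes with their outer flanks span 733.416 kb of chromosome arm 3R.

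The data are chromatin immunoprecipitation followed by sequencing (ChIP-seq) from Kc167 cells, a female cell line of embryonic origin. The 12 libraries comprised 2 of AGO2 from mock cells, transfected without double-stranded RNA, 2 of AGO2 from cells transfected with double-stranded RNA against LaminB, 2 of Pol II (antibody 8WG16) from mock cells, 4 mock inputs and 2 LaminB knockdown inputs, and the study's methods give collection of the cells 3 days after transfection. The question was where AGO2 lies on chromatin and how that map differs when LaminB, a protein of the nuclear lamina, is depleted. Since mock cells received no double-stranded RNA, depletion of LaminB and the presence of double-stranded RNA cannot be told apart here. The authors pooled the libraries of each ChIP into 1 list of intervals, 4201 mock AGO2 peaks, 761 knockdown AGO2 peaks and 5905 mock Pol II domains, so that no value below has a replicate error, no difference between mock and knockdown could be tested, and the depth per library is unknown. Each AGO2 peak has a fold enrichment over the local input background and a −log10 p from the peak caller, and each rank below counts from the highest −log10 p of its list.

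Hox genes encode homeodomain transcription factors that give the segments of the body their identity along the axis from head to tail, and along each complex their order follows the order of the body parts they specify. Large stretches of regulatory DNA in introns and between the genes set where each is transcribed. Polycomb group proteins keep Hox genes silent outside their domains, and Trithorax group proteins keep them active within, both acting through short elements known as Polycomb response elements (PREs). The GAGA factor, Pho and Zeste are DNA-binding proteins that recognize motifs common in PREs. AGO2 is the Argonaute that carries out RNA interference in the fly, and Argonaute proteins have also been found on chromatin.

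The DNA under the AGO2 summits that were called in the LaminB knockdown is shown first, because these places carry the comparison between the conditions. The first 5 sequences are 201 bp around the mock summit, for 5 of the 6 places where a mock and a knockdown peak overlapped. The last is the window of the single knockdown peak with no mock peak under it, which was chosen after its values were seen. All are the plus strand of 3R, 5′ to 3′, from the RefSeq Release 6 genome (dm6). Capitals mark matches, on either strand, to GAGAG (GAGA factor), GCCAT (Pho, ATGGC on the other strand), CGATA (BEAF-32), TGCATA (Su(Hw)), AGGNGGC (CTCF) and TGAGTG (Zeste), and a run of capitals can hold overlapping matches.
Dfd TSS (chr3R:6791646-6791846): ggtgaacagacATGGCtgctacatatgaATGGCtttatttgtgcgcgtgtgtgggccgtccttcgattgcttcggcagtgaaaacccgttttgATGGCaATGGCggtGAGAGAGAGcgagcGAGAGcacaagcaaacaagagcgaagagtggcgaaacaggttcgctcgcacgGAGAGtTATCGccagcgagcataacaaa
Dfd intron (chr3R:6796646-6796846): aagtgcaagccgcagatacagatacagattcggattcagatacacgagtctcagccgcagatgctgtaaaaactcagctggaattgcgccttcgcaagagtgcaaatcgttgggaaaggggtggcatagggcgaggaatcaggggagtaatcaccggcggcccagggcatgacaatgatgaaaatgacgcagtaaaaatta
Antp intron (chr3R:6912897-6913097): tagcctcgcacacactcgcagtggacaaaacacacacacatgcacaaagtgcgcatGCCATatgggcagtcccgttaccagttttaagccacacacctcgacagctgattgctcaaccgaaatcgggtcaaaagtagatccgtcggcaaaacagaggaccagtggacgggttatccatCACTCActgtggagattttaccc
Ubx intron (chr3R:16702960-16703160): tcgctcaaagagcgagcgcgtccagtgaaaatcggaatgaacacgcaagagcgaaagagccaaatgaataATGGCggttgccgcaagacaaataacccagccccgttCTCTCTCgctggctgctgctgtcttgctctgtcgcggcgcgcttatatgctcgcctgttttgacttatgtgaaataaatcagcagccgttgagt
lncRNA:bxd intron (chr3R:16764039-16764239): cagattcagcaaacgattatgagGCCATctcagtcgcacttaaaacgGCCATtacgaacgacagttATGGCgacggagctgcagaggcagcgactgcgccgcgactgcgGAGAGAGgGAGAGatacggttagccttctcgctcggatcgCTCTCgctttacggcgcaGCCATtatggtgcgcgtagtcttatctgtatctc
lncRNA:iab8 intron, knockdown list (chr3R:16869403-16869603): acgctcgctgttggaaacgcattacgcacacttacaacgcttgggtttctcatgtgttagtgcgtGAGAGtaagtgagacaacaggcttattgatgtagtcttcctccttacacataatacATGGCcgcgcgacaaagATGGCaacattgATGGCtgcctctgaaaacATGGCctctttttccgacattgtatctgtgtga

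These windows differed in what they held. The lncRNA:bxd window had 4 GCCAT and 4 GAGAG matches, and the Dfd TSS window had 4 and 5, with 1 CGATA match. The Ubx window held 1 GCCAT and 2 GAGAG matches, the Antp window 1 GCCAT and 1 TGAGTG match, and the window in the Dfd intron none of the 6 motifs. The knockdown-only window held 4 GCCAT matches and 1 GAGAG. A match is a description of the letters and not a measured binding site.

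Every Hox gene had AGO2 in mock cells. A mock AGO2 peak overlapped the body of 8 of 8 Hox genes (Wilson 95% interval 67.6 to 100%, which covers the number of genes only), while it did so in 17.6% of all genes. Hox genes are long, and among the 1985 protein-coding genes of at least 10 kb the share was 44.6%. The count was 8 of 8 also within 20 kb of the body, where the background was 68.6%. Here and below, backgrounds within 20 kb and at a TSS are over all genes and are not matched to length. Each of lab, pb, Antp and Ubx had 1 peak in the body, and each of Dfd, Scr, abd-A and Abd-B had 2, while the long genes had a median of 0 and a mean of 0.939. Per length, 6 of 8 Hox genes lay above the 2.77 peaks per 100 kb of the pooled long genes: Dfd with 18.9, abd-A with 8.76, Scr with 7.45, lab with 5.83, Abd-B with 4.44 and pb with 2.92. Ubx with 1.29 and Antp with 0.97 lay below it. This order follows gene length to a large part. With 1 peak in 34.264 kb pb was above the pooled value, and Dfd, abd-A, Scr and lab are shorter than pb. For these 5 genes 1 peak in the body was thus enough, and the pooled value includes long genes with no peak. The 6 of 8 therefore adds little to the 8 of 8 above.

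**Figure D1:**
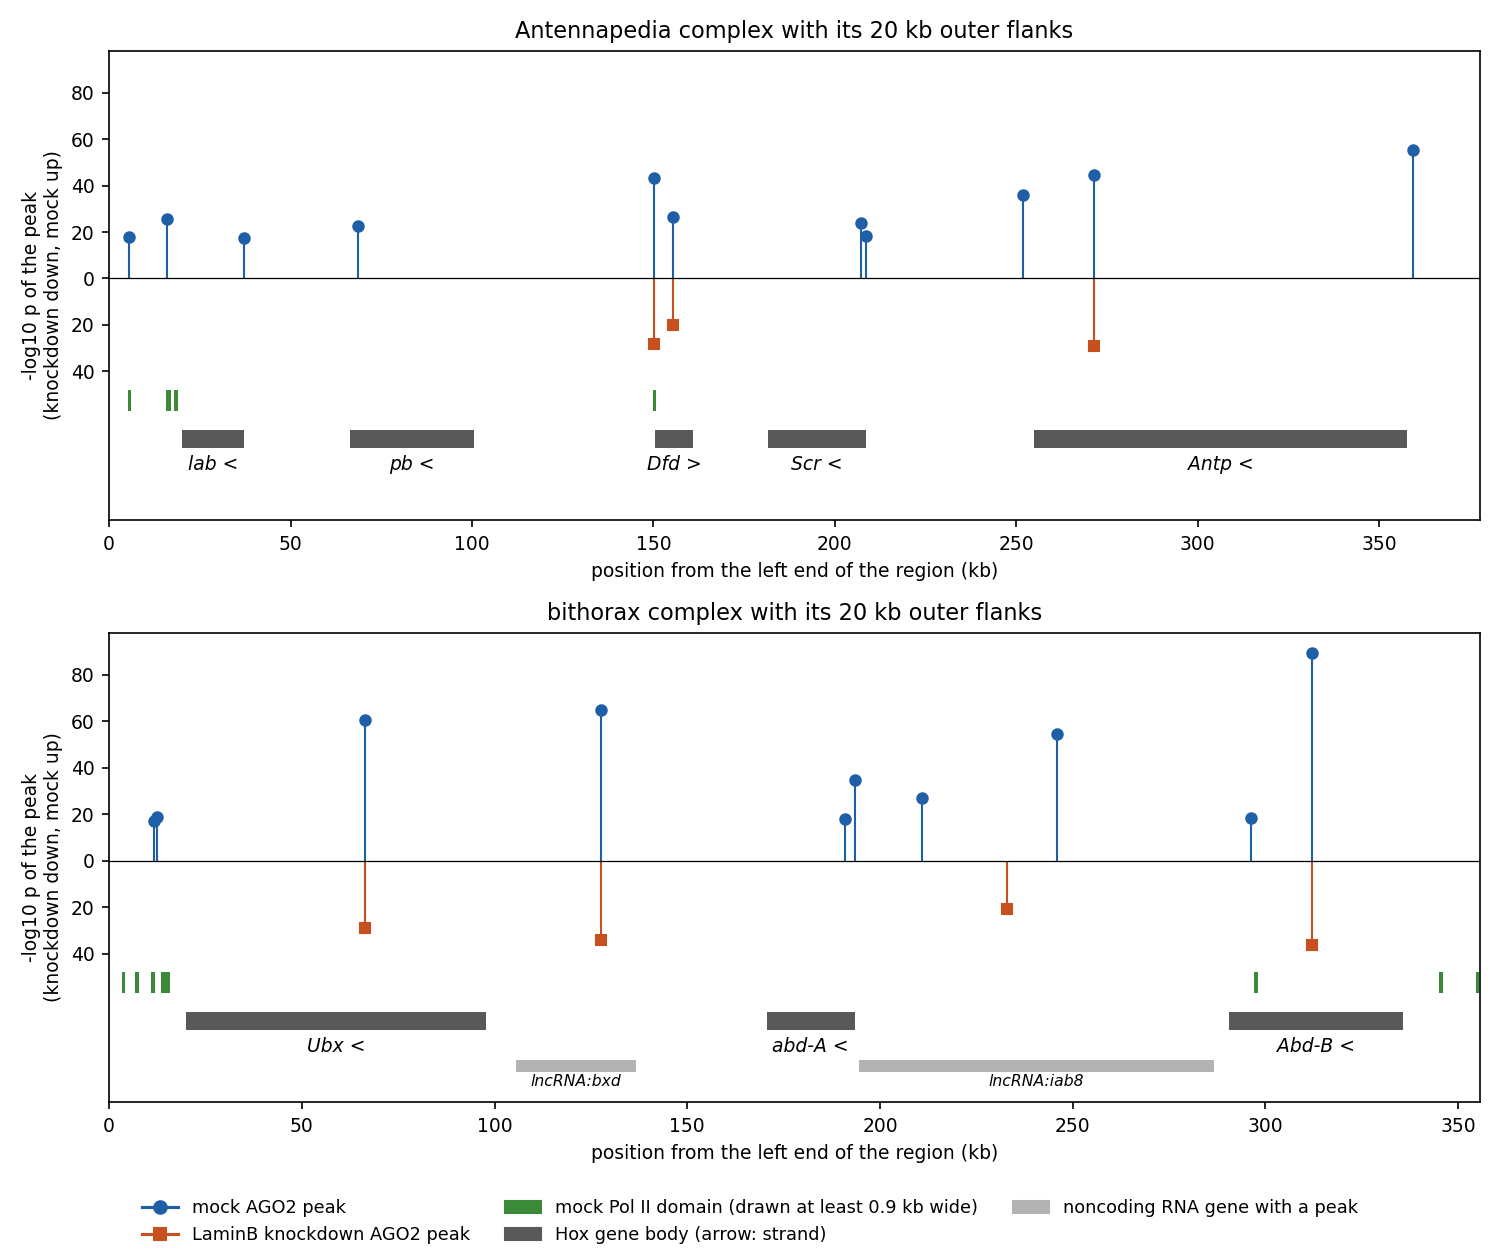
AGO2 peaks and Pol II domains along the Antennapedia complex (top) and the bithorax complex (bottom), by position in kb from the left end of each region. Stems show the −log10 p of each mock AGO2 peak (up, blue) and LaminB knockdown AGO2 peak (down, orange) at its summit, green bars show mock Pol II domains, and grey bars show gene bodies. Of the 11 Pol II domains, 9 lie in the outer flanks, while 16 of the 21 mock peaks and all 7 knockdown peaks lie between the outermost Hox genes.

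The complexes were not denser in AGO2 peaks than the genome. They held 21 mock peaks with the flanks (2.86 per 100 kb) and 16 between the outermost Hox genes (2.45 per 100 kb), against 3.05 per 100 kb over the 7 chromosomes. The 21 peaks were divided between the Antennapedia complex with 11 and the bithorax complex with 10, and 8 of them had their summit in a Hox gene body. Their strength stood above the list as a whole. Their median −log10 p was 26.6 (17.1 to 89.2), against 21.4 over all mock peaks, and 7 of 21 (33.3%, interval 17.2 to 54.6%) belonged to the strongest 10% of the list. Summits in introns or between genes made up 12 of 21 (57.1%, 36.5 to 75.5%), against 40.9% of the list.

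**Figure D2:**
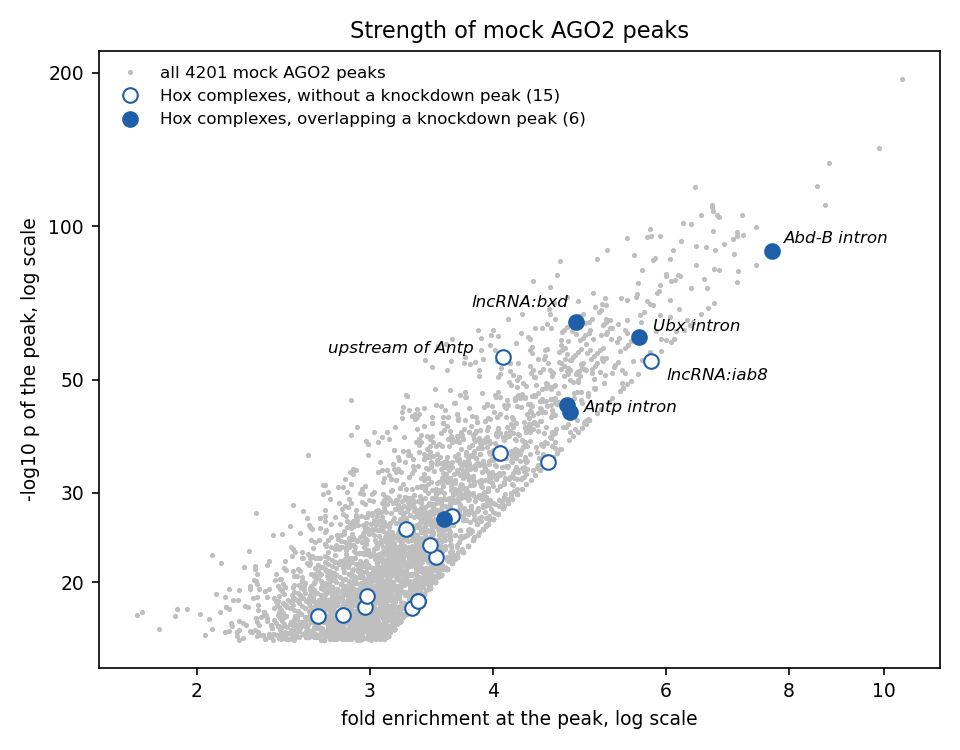
Fold enrichment (x, log scale) and −log10 p (y, log scale) of all 4201 mock AGO2 peaks (grey) and the 21 of the Hox complexes (blue, filled where a knockdown peak overlaps). The Hox peaks run from the weak end of the list to the Abd-B intron peak near its top, and the unlabelled filled point beside the Antp intron is the peak at the Dfd TSS.

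In the Antennapedia complex, 3 of 5 genes had a mock peak over a transcription start site (TSS). Labial (chr3R:6661427-6678590, minus strand), which acts in the intercalary segment and the midgut, had 1 peak (chr3R:6677217-6678772) whose summit lay 74 bp upstream of its TSS at 6678590, with a fold enrichment of 2.82 and a −log10 p of 17.3. Deformed (chr3R:6791836-6802428, plus strand), which specifies the mandibular and maxillary segments, had a peak over its TSS at 6791836 (chr3R:6791556-6791959, 4.79-fold, −log10 p 43.1, summit 90 bp upstream) and a second in its intron (chr3R:6796478-6796934, 3.57-fold, −log10 p 26.6). Sex combs reduced (chr3R:6823120-6849981, minus strand), which specifies the labial and first thoracic segments, had a peak over its upstream TSS at 6849981 (chr3R:6849784-6850341, 3.36-fold, −log10 p 18.4, summit 86 bp upstream). A second Scr peak lay in an intron, 45 bp from the TSS at 6848505 that 4 of its transcripts share (chr3R:6848551-6848919, 3.45-fold, −log10 p 23.7). The Dfd TSS peak was thus the only one of these in the strongest 10% of the list, at rank 417, and its −log10 p of 43.1 stood just inside the limit of 43.0.

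The other genes of the Antennapedia complex carried AGO2 away from their TSSs. Proboscipedia (chr3R:6707800-6742063, minus strand), which acts in the adult mouthparts, had its single peak in coding sequence (chr3R:6709646-6710109, 3.50-fold, −log10 p 22.5), and its TSS at 6742063 lay 31953 bp from the nearest mock peak. Antennapedia, which specifies thoracic identity, spans 102.976 kb (chr3R:6896253-6999228, minus strand) and had 1 peak in its body. This peak lay in an intron that is also annotated to CG46458 (chr3R:6912808-6913163, 4.76-fold, −log10 p 44.5, rank 382), 19676 bp from the nearest Antp TSS. A stronger peak lay just outside the gene, 1723 bp upstream of the Antp TSS at 6999228, in an exon of the noncoding RNA gene lncRNA:CR45899 (chr3R:7000590-7001270, 4.09-fold, −log10 p 55.3, rank 198). Between these peaks, 87.4 kb of the Antp locus held no mock AGO2 peak, the longest such gap in either complex. Another peak, over the TSS of lncRNA:CR45559, lay between Scr and Antp (chr3R:6893078-6893598, 4.07-fold, −log10 p 35.9).

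In the bithorax complex the strongest peaks lay in introns of Hox genes and of noncoding RNA genes. Ultrabithorax (chr3R:16656623-16734426, minus strand), which specifies the third thoracic and first abdominal segments, had 1 intronic peak (chr3R:16702732-16703273, 5.63-fold, −log10 p 60.5, rank 146). Its summit lay 31366 bp downstream of the Ubx TSS at 16734426. Upstream of Ubx, lncRNA:bxd had 1 intronic peak (chr3R:16763952-16764473, 4.86-fold, −log10 p 65.0, rank 103). The bxd region is known for regulatory DNA of Ubx, including a PRE. Abdominal-A (chr3R:16807214-16830049, minus strand), which specifies the anterior abdomen, had a peak over its TSS at 16830049 (chr3R:16829871-16830326, 4.56-fold, −log10 p 34.5, summit 105 bp upstream) and a weaker one in coding sequence (chr3R:16827228-16827939, 3.31-fold, −log10 p 17.8). Both Ubx and lncRNA:bxd, but neither peak of abd-A, belonged to the strongest 10%.

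Between abd-A and Abd-B lies lncRNA:iab8, a noncoding RNA gene that covers regulatory DNA of both genes and is known for the miRNA made from it. It held 2 mock peaks, both in introns shared with the gene MSAmiP. The weaker of them (chr3R:16847207-16847656, 3.63-fold, −log10 p 27.0, rank 1292) was still above the median −log10 p of the mock list, 21.4. The stronger (chr3R:16882398-16882925, 5.80-fold, −log10 p 54.4, rank 215) was in the strongest 10%. Abdominal-B (chr3R:16927212-16972236, minus strand), which specifies the posterior abdomen and has 6 annotated TSS positions, had the strongest peak of all 8 genes, in an intron 4491 bp upstream of its TSS at 16944273 (chr3R:16948550-16948995, 7.68-fold, −log10 p 89.2, rank 34). Its other peak lay in coding sequence (chr3R:16932428-16933206, 3.36-fold, −log10 p 18.4). None of the 6 Abd-B TSSs was covered by AGO2, the nearest lying 1035 bp from a mock peak.

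Counted by TSS, the genes divided evenly. A mock peak covered a TSS of 4 of 8 Hox genes (lab, Dfd, Scr and abd-A), against 8.87% of all genes, and 4 of the 19 Hox TSS positions. The summits of those 4 peaks lay 74 to 105 bp upstream of the TSS. All 18277 genes together have 24111 TSS positions, so the 8.87% is not matched to the number of TSSs per gene. The 4 genes without a covered TSS (pb, Antp, Ubx and Abd-B) were the 4 longest of the 8, from 34.3 kb for pb to 103.0 kb for Antp. When the lists were narrowed to the stronger 50% of peaks, 2 genes with a covered TSS were left, Dfd and abd-A.

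Pol II was called at few Hox genes. A mock Pol II domain overlapped the body of 2 of 8, Dfd and Abd-B (25%, interval 7.15 to 59.1%), against 40.8% of all genes and 67.0% of the long protein-coding genes. At Dfd the domain was 215 bp wide and covered the TSS (chr3R:6791719-6791933), under the AGO2 peak there. At Abd-B it was 285 bp wide and covered the TSS at 16934242 (chr3R:16934064-16934348), 857 bp from the nearest AGO2 peak. These were the only 2 domains between the outermost Hox genes, 0.306 per 100 kb against 4.29 per 100 kb over the chromosomes. The same 2 genes were the count at a TSS (background 37.1%), and the count within 20 kb was 4 of 8 (background 83.2%), where lab and Ubx were added by domains of neighbouring genes, the nearest 1269 bp from lab and 4201 bp from Ubx. At least 50% overlap left 1 of 8, since the Dfd domain reached only 98 bp into the body. A gene without a domain is one at which none was called, and its transcription was not measured in these lists.

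Most Hox genes had a mock AGO2 peak and no Pol II domain called in the body. A mock AGO2 peak and no Pol II domain in the body was found for 6 of 8 Hox genes (lab, pb, Scr, Antp, Ubx and abd-A, interval 40.9 to 92.9%), against 1.73% of all genes and 4.69% of long protein-coding genes. Read only among genes that had a mock AGO2 peak, the share without Pol II was 6 of 8 (75%) for Hox genes, 9.80% of 3223 genes and 10.5% of 886 long genes. With only the 761 strongest mock peaks, lab, pb and Scr no longer had one in the body, while Antp, Ubx and abd-A did. The share of genes with such a peak and no Pol II domain was not computed for that set. The 8 genes sit in 2 clusters and are not 8 independent observations.

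**Figure D3:**
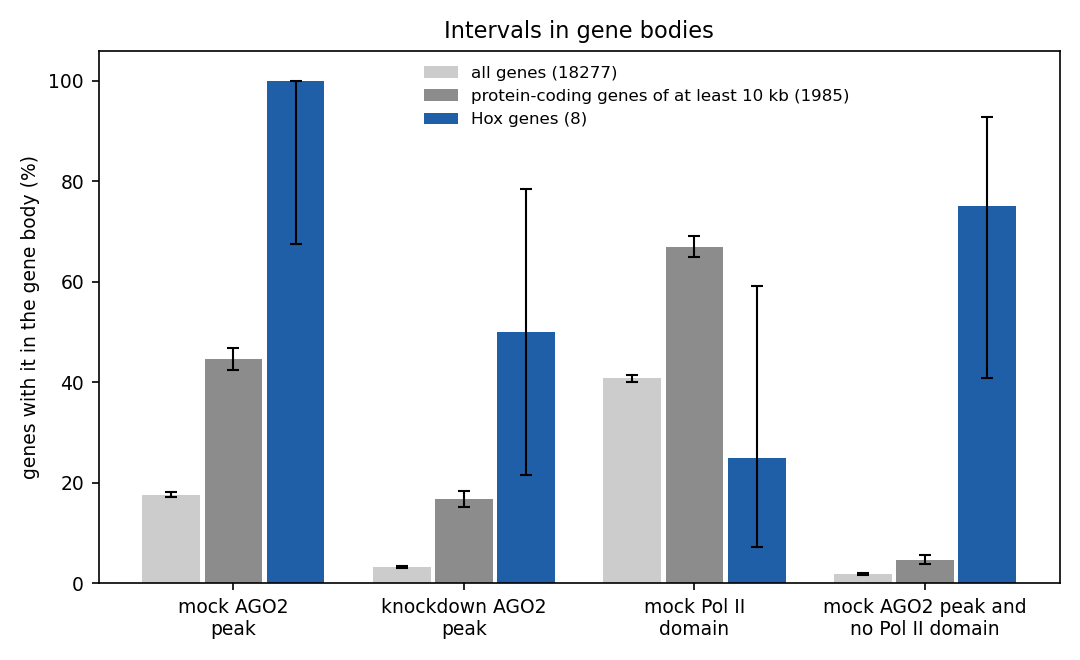
Percent of genes whose body overlaps a mock AGO2 peak, a LaminB knockdown AGO2 peak, a mock Pol II domain, or a mock AGO2 peak and no Pol II domain, for all genes, protein-coding genes of at least 10 kb and the 8 Hox genes. Bars start at 0 and lines are Wilson 95% intervals over genes. For Hox genes the bars stand at 8, 4, 2 and 6 of 8.

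The same held when the peaks themselves were counted. Of the 21 mock peaks of the complexes, 4 overlapped a Pol II domain (19.0%, interval 7.67 to 40.0%), against 63.0% of all mock peaks. Of these 4, the peak at the Dfd TSS belonged to a Hox gene, and the others lay in the outer flanks at Taf1, CG1307 and CCT3. Between the outermost Hox genes the count was 1 of 16 (6.25%, 1.11 to 28.3%). There the median distance from a peak to the nearest domain was 53.9 kb, against 0 for the list, and 11 of 16 peaks lay 20 kb or more away, against 5.43% of the list. The complexes held long stretches free of Pol II domains. The stretch of 281.6 kb from the left flank of Ubx to Abd-B ranked 20 among 5898 such stretches of the genome, and the one of 274.9 kb from Dfd past Antp ranked 23, against a median of 6.86 kb. Another, of 131.6 kb, ran from the left flank of lab to Dfd.

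**Figure D4:**
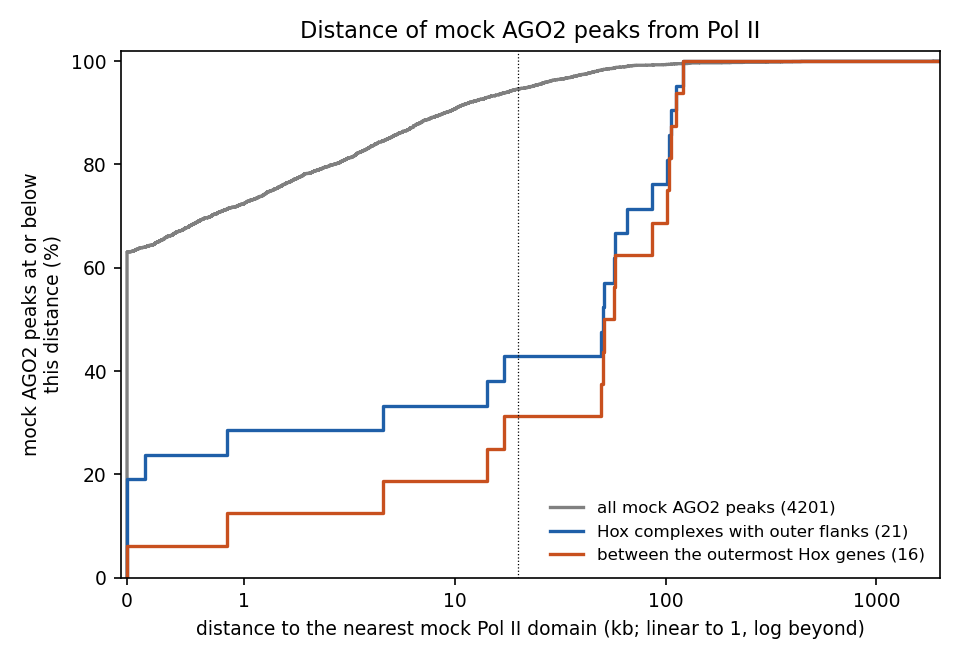
Cumulative percent of mock AGO2 peaks (y) by distance to the nearest mock Pol II domain (x, in kb, linear to 1 kb and log beyond), for all 4201 peaks, the 21 of the Hox complexes with their flanks and the 16 between the outermost Hox genes. The dotted line marks 20 kb. At a distance of 0 the curves stand at 63.0%, 19.0% and 6.25%.

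After LaminB knockdown an AGO2 peak was called at 4 of the 8 Hox genes. Dfd had 2 knockdown peaks in its body, and Antp, Ubx and Abd-B had 1 each, while lab, pb, Scr and abd-A had none. The background was 3.21% of all genes and 16.7% of long protein-coding genes. Among genes that had a mock peak, 50.0% of Hox genes (4 of 8, interval 21.5 to 78.5%), 16.6% of all genes and 35.8% of long genes had a knockdown peak. The count was also 4 of 8 within 20 kb (background 20.0%), and at a TSS it was 1 of 8, Dfd (background 1.72%). With flanks of 50 kb the knockdown count was 7 of 8. No share over all genes was computed at 50 kb, and the median stretch free of knockdown peaks was 58.2 kb. Scr, abd-A, pb and lab had none within 20 kb. The nearest knockdown peak lay 26196 bp from the body of Scr, 39339 bp from abd-A, 49501 bp from pb and 112974 bp from lab.

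The lengths of the lists bear on this count, since the number of peaks kept by the authors differed between conditions. The lowest −log10 p was 15.4 in the mock list and 19.8 in the knockdown list. When the mock list was held to its 761 strongest peaks, as many as the knockdown list has, 5 of 8 Hox genes had one in the body (Dfd, Antp, Ubx, abd-A and Abd-B), against 3.73% of all genes and 15.5% of long protein-coding genes. At equal length the lists thus differed by 1 Hox gene, abd-A. The mock peaks of lab (17.3), of the Scr TSS (18.4) and in the coding sequence of abd-A (17.8) and Abd-B (18.4) had a −log10 p below the lowest value that the knockdown list holds, while those of pb (22.5), the Scr intron (23.7) and the abd-A TSS (34.5) were above it.

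The complexes held 7 knockdown peaks, 3 in the Antennapedia complex and 4 in the bithorax complex, none of them in the outer flanks. This was 0.954 per 100 kb, against 0.553 over the chromosomes. Of the 21 mock peaks, 6 overlapped a knockdown peak (28.6%, interval 13.8 to 50.0%), against 15.2% of all mock peaks. In the whole list this share was 55.1% in the strongest 10% and 10.7% in the rest. In the complexes it was 5 of 7 in the strongest 10% (71.4%, 35.9 to 91.8%) and 1 of 14 in the rest (7.14%, 1.27 to 31.5%). The 2 peaks of the strongest 10% with no knockdown peak were those at lncRNA:CR45899 upstream of Antp and at 16882398-16882925 in lncRNA:iab8. The nearest knockdown peak was 87399 bp from the former and 12740 bp from the latter. Of the 7 knockdown peaks, 1 overlapped a mock Pol II domain, at the Dfd TSS, against 56.1% of the knockdown list.

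Where both conditions had a peak, the summits lay close together and the knockdown fold was the lower of the pair. At the Dfd TSS the fold enrichment was 4.79 in mock and 4.01 in knockdown (−log10 p 43.1 and 28.1), and in the Dfd intron it was 3.57 and 3.18 (26.6 and 20.0). At Antp it was 4.76 and 4.46 (44.5 and 29.0). These 3 pairs of the Antennapedia complex had knockdown-to-mock ratios of 0.836, 0.892 and 0.937. At Ubx the fold was 5.63 and 3.53 (60.5 and 28.9), at lncRNA:bxd 4.86 and 3.75 (65.0 and 34.2), and at Abd-B 7.68 and 4.77 (89.2 and 36.1). These 3 pairs of the bithorax complex had ratios of 0.626, 0.772 and 0.620, each below all 3 of the Antennapedia complex. Their mock peaks were also the stronger ones, each with a higher fold and −log10 p than all 3 of the Antennapedia complex. The mock fold is the denominator of the ratio, and a difference between the complexes apart from mock strength was not tested. Summits were 1 to 43 bp apart, with a median of 13 bp, against 21 bp over all 640 pairs.

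The lower fold was also usual for strong peaks elsewhere. The knockdown fold was lower in 6 of 6 Hox pairs and in 57.3% of the 640 pairs of the genome, but in 88.5% of the 234 pairs whose mock peak was in the strongest 10%. The median ratio was 0.804 for the Hox pairs, 0.937 for all pairs and 0.674 for the pairs of the strongest 10%. Of the 6 Hox pairs, 5 had their mock peak in that part of the list, all but the Dfd intron. Fold enrichment depends on depth and on the input of each condition, and the part of depth in these ratios was not tested.

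**Figure D5:**
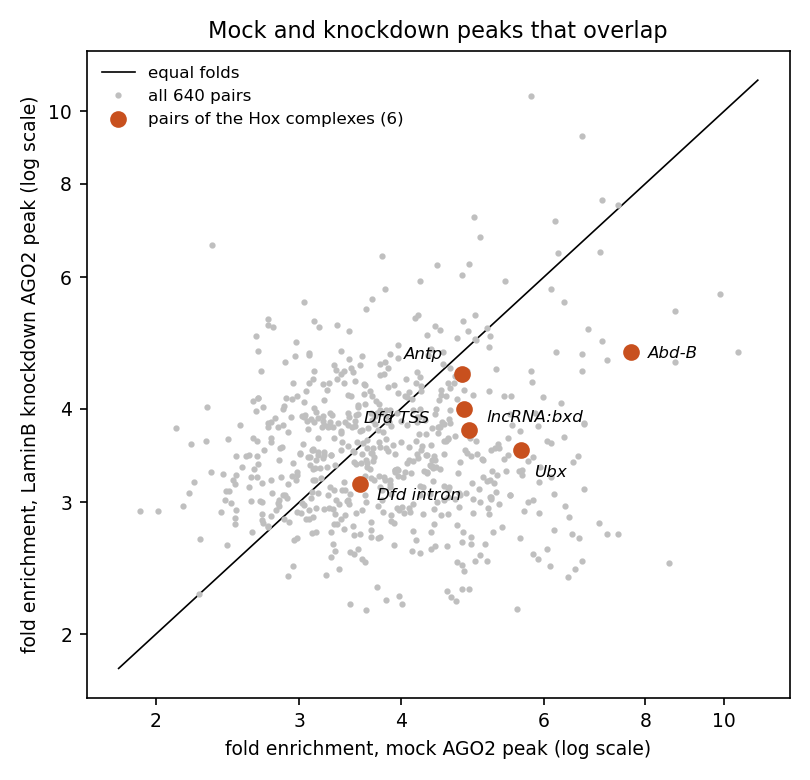
Fold enrichment of the mock AGO2 peak (x) and of the LaminB knockdown AGO2 peak (y), both on log scales, for the 640 pairs of overlapping peaks (grey) and the 6 pairs of the Hox complexes (orange). All 6 lie below the line of equal folds, with ratios from 0.620 at Abd-B to 0.937 at Antp.

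A single knockdown peak of the complexes had no mock peak under it. It lay in an intron of lncRNA:iab8 and MSAmiP (chr3R:16869389-16869657), with a fold enrichment of 3.79 and a −log10 p of 20.9, at rank 669 of 761. By −log10 p it was thus a weak peak of its list, while its fold was above the list median of 3.53. It lay 12740 bp from the nearest mock peak. Its window is the last of the sequences above.

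The motif counts set the windows of the complexes apart in GCCAT, the core of the site bound by Pho. Among 20 mock windows of 201 bp, 15 held GCCAT (75%, interval 53.1 to 88.8%), against 36.5% of 4200 mock windows and 32.9% of the strongest 10%. Between the outermost Hox genes it was 12 of 15. At least 4 matches were found in 2 Hox windows, those at the Dfd TSS and lncRNA:bxd, and in 21 of the 4200 windows (0.50%), a number of matches that was chosen after these windows were seen. GAGAG was held by 12 of 20 (60.0%, 38.7 to 78.1%), against 39.9% of the mock windows and 63.3% of the strongest 10%, to which the share was close. CGATA was held by 5 of 20 (25%) against 21.2%, TGAGTG by 4 of 20 (20.0%) against 14.5%, AGGNGGC by 2 of 20 (10.0%) against 15.6%, and TGCATA by 0 of 20 against 5.24%. For GAGAG and these other 4 motifs the share of the list lay within the interval of the Hox windows, whose upper limit for TGCATA was 16.1%.

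Other genes listed for the complexes were counted in the same way, beside shares over all genes of 17.6% for a mock AGO2 peak, 3.21% for a knockdown peak and 40.8% for a Pol II domain. The 14 non-Hox genes listed for the Antennapedia complex include bicoid (bcd), zen and ftz, which act in the early embryo, and a cluster of cuticle genes, and 0 of 14 had a mock AGO2 peak, a knockdown AGO2 peak or a Pol II domain in the body. Of 6 non-Hox genes found for the bithorax complex, lncRNA:bxd and lncRNA:iab8 had both a mock and a knockdown AGO2 peak, and 0 of 6 had a Pol II domain. At lncRNA:bxd the peaks of both conditions overlapped, and at lncRNA:iab8 they did not. All 14 genes listed for the Antennapedia complex are shorter than 10 kb, so a share over all genes is not matched to their length. The lists were also not complete. Outside them, lncRNA:CR45559 and CG46458 of the Antennapedia complex and MSAmiP of the bithorax complex had a mock AGO2 peak in the body. CG46458 and MSAmiP had a knockdown peak as well.

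Pol II was called at most of the genes that work with the Hox proteins. Of 6 Hox cofactors, 5 had a Pol II domain in the body: exd and hth, which encode the homeodomain partners of Hox proteins, tsh and tio, which encode zinc finger proteins of the trunk, and disco, a zinc finger gene of the head. A mock AGO2 peak lay in 4 (hth with 5 peaks, disco-r with 3, tio and disco with 1 each) and a knockdown peak in 3 (hth, tio and disco-r), against 17.6% and 3.21% of all genes. Of 8 genes known as Hox targets, 6 had a Pol II domain (Dll, dpp, wg, salm, rpr and ct), 5 a mock AGO2 peak (ct with 5, Dll, wg, salm and ems with 1 each) and 2 a knockdown peak (wg and ct), beside the same shares over all genes. The Pol II shares of 5 of 6 and 6 of 8 stood beside 2 of 8 for the Hox genes and 40.8% of all genes, and were not tested. Among long protein-coding genes the shares were 67.0% for Pol II, 44.6% for a mock AGO2 peak and 16.7% for a knockdown peak. Of these cofactors and targets, hth, disco-r, Dll, dpp, salm and ct are at least 10 kb long.

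Kc167 cells are known for traits of hemocytes, the blood cells of the fly. Of 8 hemocyte genes, 7 had a Pol II domain in the body (srp, Hml, Pxn, eater, crq, Col4a1 and vkg, but not NimC1), against 40.8% of all genes. A mock AGO2 peak lay in 2 of them (srp and Pxn), against 17.6% of all genes, and a knockdown peak in srp, against 3.21%. Of 5 genes listed for other tissues 3 were matched by symbol. The neuronal gene elav and the germline gene vas had a Pol II domain, and the muscle gene Mhc did not. All 3 had a mock AGO2 peak in the body, and elav also had 2 knockdown peaks, so that Mhc, like 6 of the Hox genes, had mock AGO2 and no Pol II domain. The lists give called intervals and no expression, and the level of LaminB RNA was not measured in them.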

How the data were processed

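AGO2 and Pol II ChIP-seq of Kc167 cells was analysed from 3 deposited interval lists. The authors trimmed reads (cutadapt 1.10), aligned them to dm6 (Bowtie2 2.2.8), dropped reads of low mapping quality (SAMtools 1.3.1) and duplicates (Picard 2.5.0), and called peaks on pooled libraries against pooled input (MACS2 2.1.1.20160309). The AGO2 lists were shortened to the number of peaks reproducible between pseudoreplicates, which depends on depth and enrichment, so list lengths can differ where binding does not. For Pol II, domains came from the broad mode and were merged (bedtools 2.25.0). Reads in near-identical repeats were lost.

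The deposited AGO2 lists give a fold enrichment (a linear ratio of ChIP to local background), the −log10 of the authors' p-value and a display score made from it, which was not used. The deposited Pol II list holds positions without values. Column meanings follow the caller's standard layout, since there is no header. Depth is unknown, and Wilson 95% intervals cover the number of genes or peaks only.

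Genes and TSSs came from Ensembl 115 (build 6.54) without transposon insertions, and sequence from RefSeq Release 6. An overlap was at least 1 bp, and coordinates count from 1. Where features overlapped, a summit went to coding sequence before UTRs, then to noncoding exons and introns. Peaks overlapping the complexes with 20 kb flanks were taken, and the stretch between the outermost Hox genes was assigned by summit. One window is not reported here and was left out of all motif counts. Interval counting was checked on simulated data. Python 3.11.15, numpy 2.4.6, pandas 2.3.3 and matplotlib 3.10.9 were used.

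All 8 Hox genes and every AGO2 peak of the complexes that touches a member were described, and of the other lists the genes with an interval were named. The members, gene lists and motifs were chosen with earlier results of these data known. The alternatives changed the overlap rule, the peak limits, the length of the AGO2 lists, the flanks, the transcripts, the TSS width and the merging of Pol II domains.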

Additional observations from a re-analysis of the deposited data

How the results depend on the processing

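Of 80 alternatives over 15 results, 67 moved a count or density by at most 1.5 times, or left a share within its interval, and 13 did not. With as many of the strongest mock peaks as the knockdown list holds, Hox genes with a mock AGO2 peak numbered 5 in the body and 5 within 20 kb in place of 8, and 2 at a TSS in place of 4. Mock density was then 1.23 per 100 kb, the share of mock peaks with a knockdown peak 55.6%, and the share of summits in introns or between genes 77.8%. At a TSS the count was also 2 for mock peaks with a −log10 p no lower than that of the weakest knockdown peak and for the stronger 50%, and for knockdown summits plus and minus 100 bp it was 0 in place of 1. With 50 kb flanks 7 Hox genes had a knockdown peak nearby in place of 4, with no share over all genes computed at that width. With at least 50% of the shorter interval shared, 1 Hox body held Pol II in place of 2. Between the outermost Hox genes, an alternative chosen after seeing the data, Pol II density was 0.306 per 100 kb in place of 1.50, and 6.25% of mock peaks overlapped Pol II in place of 19.0%.

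No paired analysis was possible because the authors pooled the libraries of each condition into 1 list, and for the same reason no library was left out. A place without a peak is one where none was called, at an unknown depth.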
